A study of Mus musculus with 24 samples.

Results

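The vascular endothelial growth factor (VEGF) family was followed here as 10 genes, the ligands Vegfa, Vegfb, Vegfc, Vegfd and Pgf, the receptor kinases Flt1, Kdr and Flt4, and the neuropilins Nrp1 and Nrp2. These 10 genes were chosen by symbol from 54232 gene identifiers counted in the series. The family was taken up in part because Vegfc was higher in knock-in hematopoietic libraries, so the comparison of genotypes in those libraries is given for these genes as a description, with no test. RNA was measured in sorted cells of bone marrow stromal cultures at day 7, from C57BL/6 females aged 6-8 weeks, in 4 groups of 6 libraries. The wild type and the knock-in (Sh3bp2 KI/KI, titled as a mouse model of cherubism) were each sorted into CD45+Sca1+ cells, called hematopoietic, and CD45-Sca1+ cells, called mesenchymal. All cultures grew in MEM-alpha with 10% FBS, and every group was sorted positive for Sca1. The change that the knock-in makes in Sh3bp2 is not in the labels, nor do they give the animal or culture behind each replicate, so p-values cover only the spread among the deposited libraries.

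VEGF ligands are secreted factors that act on receptor kinases best known from blood and lymphatic endothelium. VEGF-A acts mainly through the product of Kdr (VEGFR2) and also binds that of Flt1 (VEGFR1), which the products of Vegfb and Pgf bind as well. VEGF-C and VEGF-D act on the product of Flt4 (VEGFR3), the receptor of lymphatic endothelium, and both are made as precursors that proteases trim. Neuropilins carry no kinase of their own and serve as co-receptors for VEGFs and for class 3 semaphorins. In bone, VEGF-A from stromal and bone-forming cells links vessel growth to bone growth, and osteoclast precursors are known to carry VEGF receptors.

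Total counts ranged from 9875390 to 15826711 per library (mean 13357727 ± 1573115, SD, n = 24). Levels are given as CPM, the counts of a gene scaled to a common library total, after scaling between libraries. In hematopoietic libraries Ptprc, which encodes CD45, averaged 792 CPM (wild type) and 748 CPM (knock-in), against 2.97 and 3.13 CPM in mesenchymal ones. Ly6a, which encodes Sca1, was low in all groups, at 9.98 to 12.1 CPM on average. The 20 stromal markers summed to 28892 to 65009 CPM in mesenchymal and 1949 to 12617 CPM in hematopoietic libraries. Relative to the mesenchymal mean of the same genotype, stromal markers averaged 10.97% ± 5.04 in hematopoietic libraries of the wild type and 10.7% ± 5.71 in those of the knock-in (mean ± SD of the median over 19 and 17 markers, n = 6). Leukocyte markers stood at 0.397% ± 0.127 and 0.549% ± 0.344 of the hematopoietic level in wild type and knock-in mesenchymal libraries (16 markers). In such sorted bulk samples, fewer cells of a type and less RNA per cell cannot be told apart. A digit in the deposited names, C1 or C2, divides each group into 3 and 3 libraries. No label says what it marks, and it was a term in every fit.

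Vegfc and Vegfd are sister ligands of Flt4, yet the sequences before their start sites differ in make-up. The stretches shown lie before the start in both the RefSeq table and the GENCODE annotation, on the plus strand of GRCm38.p6, and capitals mark each CG pair. They are shown because Vegfc, and not Vegfd, set the hematopoietic libraries of the genotypes apart. A link between this make-up and the Vegfc values was not tested.
Vegfc, chr8:54077282-54077531: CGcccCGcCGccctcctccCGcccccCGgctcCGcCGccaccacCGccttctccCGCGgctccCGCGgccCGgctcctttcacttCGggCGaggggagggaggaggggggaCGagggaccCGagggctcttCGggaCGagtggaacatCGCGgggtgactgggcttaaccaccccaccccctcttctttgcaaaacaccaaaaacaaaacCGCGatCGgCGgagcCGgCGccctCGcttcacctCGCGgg
Vegfd, chrX:164373272-164373377: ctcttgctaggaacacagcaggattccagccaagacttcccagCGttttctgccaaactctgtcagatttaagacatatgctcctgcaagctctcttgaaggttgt
The Vegfc stretch of 250 bases held 30 CG pairs, or 12 per 100 bases, with a GC content of 71.6%. The Vegfd stretch of 106 bases held 1 CG pair, or 0.943 per 100 bases, with a GC content of 47.2%. Over the first 250 bases of all 32851 RefSeq windows in the table the median was 2.4 CG pairs per 100 bases, and 94.1% of windows held fewer than the Vegfc stretch. Many CG pairs were not particular to Vegfc within the family. Full windows of 300 bases held 37 for Nrp2, 35 for Vegfc, 31 for Vegfb, 29 for Flt1 and 26 for Flt4. The Vegfd window held 2, the fewest, and the other windows of the family held 7 to 23. In the table's full windows, from 250 bases before to 50 after the start, 4 motifs were searched on both strands. They were the hypoxia response core (ACGTG or GCGTG, found in 43.8% of all windows), the AP-1 motif TGANTCA (7.81%), the NF-kB motif (8.46%) and TATAAA (13.6%). None of the 4 lay in the Vegfc window, which says only that these letters are absent from it. The hypoxia core lay at 2 places in the windows of Nrp2, Kdr and Vegfb and at 1 place in those of Nrp1 and Flt1, and Vegfa and Pgf held it in 1 of their 2 windows each. For Vegfa that window lay inside the annotated gene (chr17:46025114-46025413), and the window at the gene's annotated start held 0 matches. It was in none of the Vegfd and Flt4 windows. The NF-kB motif lay in the windows of Kdr and Flt1 and in 1 of the 2 of Vegfa, TATAAA in those of Flt1 and Vegfd, and the AP-1 motif in none of the 10 genes. A match is a description of letters, and no binding was measured.

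Per length of exon, the neuropilins and Vegfa were among the 4 highest genes in every group, and Flt1 and Flt4 were the lowest. In CPM per kb of exon, Nrp2 stood first in all 4 groups, with 69.9 ± 7.75 for wild type and 107 ± 16.5 for knock-in hematopoietic libraries, and 97.8 ± 29.5 for wild type and 70.2 ± 8.60 for knock-in mesenchymal ones (SD, n = 6 each). Nrp1 came next in wild type hematopoietic libraries at 60.1 ± 8.95 CPM per kb, overlapping Nrp2, whereas Vegfa came next in the other 3 groups. In knock-in hematopoietic libraries Vegfa (21.8 ± 6.44 CPM per kb), Vegfc (19.98 ± 13.8) and Nrp1 (19.5 ± 5.25) followed Nrp2 and overlapped each other. Kdr stood above Pgf in wild type hematopoietic libraries (0.491 against 0.383 CPM per kb, with overlap) and below it in the other 3 groups. In mesenchymal libraries the order after Vegfa was Nrp1, Vegfc, Vegfb, Pgf, Vegfd, Kdr, Flt4 and Flt1 in both genotypes. Of neighbours in that order, Vegfb and Pgf, Pgf and Vegfd, Kdr and Flt4, and Flt4 and Flt1 overlapped in both genotypes. Nrp2 and Vegfa, Vegfa and Nrp1, and Nrp1 and Vegfc overlapped in wild type alone. Vegfc and Vegfb, and Vegfd and Kdr, overlapped in the knock-in alone. Flt1 averaged 0.0554 to 0.315 CPM per kb over the 4 groups and Flt4 0.0796 to 0.476. Dividing by the longest transcript instead of all exon bases changed the places of 2 to 4 genes in each group. Every one of the 10 genes had at least 1 count in all 24 libraries, and the smallest was 2 counts, of Flt1 and of Flt4.

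Vegfa encodes the main vessel growth factor and was the most abundant ligand per length. It was higher in mesenchymal than in hematopoietic libraries of either genotype. In wild type libraries it ranged from 37.0 CPM (median 62.8, highest 102) in hematopoietic to 138 CPM (median 191, highest 260) in mesenchymal cells, and the groups did not overlap. Mesenchymal over hematopoietic, the log2 fold change was 1.66 (SE 0.18), with an adjusted p of 2.34e-08 by edgeR (quasi-likelihood test, Benjamini-Hochberg adjustment over all genes tested). In knock-in libraries the ranges were 69.7 to 138 CPM in hematopoietic and 204 to 252 CPM in mesenchymal cells, again apart (log2 1.33, SE 0.18, adjusted p = 6.54e-07 by edgeR). Knock-in hematopoietic libraries averaged 93.5 ± 27.6 CPM against 62.4 ± 22.3 in wild type (SD, n = 6 each), with 6 of 6 above the wild type mean and 2 of 6 above every wild type library. In mesenchymal libraries the knock-in averaged 230 ± 16.7 CPM against 198 ± 41.0, a log2 difference of 0.24 (SE 0.12, adjusted p = 0.238 by edgeR). Counts are per gene, so the Vegfa isoforms were not told apart.

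Vegfb, whose product binds Flt1, had the opposite distribution to Vegfa. Hematopoietic libraries held 14.7 to 25.7 CPM in wild type (median 21.1) and 9.64 to 18.8 CPM in knock-in (median 13.7), and mesenchymal libraries 7.42 to 11.7 CPM (median 9.66) and 4.51 to 8.89 CPM (median 7.08). The 2 populations did not overlap within either genotype. The log2 fold change, mesenchymal over hematopoietic, was -1.06 in wild type (SE 0.19, adjusted p = 2.45e-05) and -1.08 in knock-in libraries (SE 0.19, adjusted p = 2.52e-05, both by edgeR). Between genotypes the knock-in mean was the lower one in both populations, with 6 of 6 knock-in libraries below the wild type mean in each. The log2 difference in mesenchymal libraries was -0.52 (SE 0.19, adjusted p = 0.119 by edgeR), and that in hematopoietic libraries, as a description, was -0.49 (SE 0.18).

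**Figure D1:**
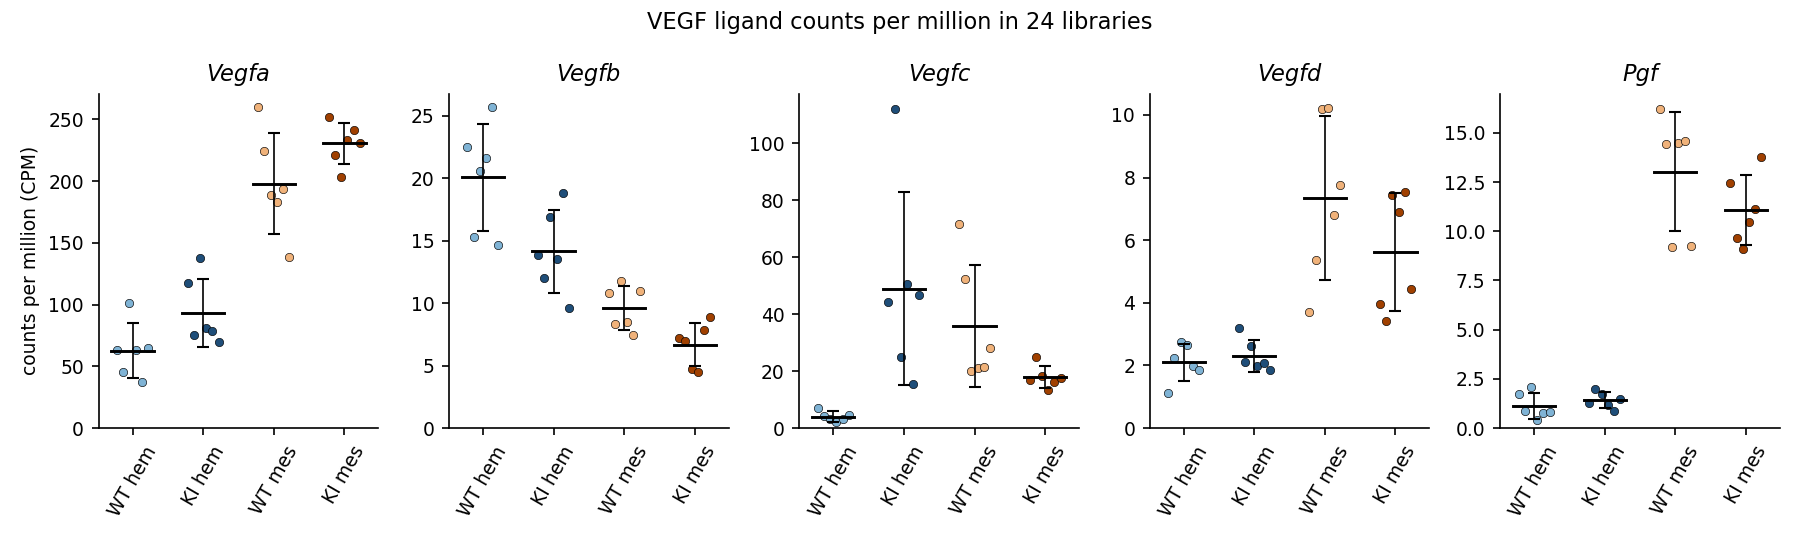
CPM of the 5 ligands in every library. Each point is 1 library (6 per group, WT wild type, KI knock-in, hem hematopoietic, mes mesenchymal), the long line is the mean and the bar 1 SD, and each panel has its own linear axis from 0. Vegfc lies at 1.98 to 7.20 CPM in wild type hematopoietic and at 15.3 to 111.9 CPM in knock-in hematopoietic libraries. Vegfa, Vegfd and Pgf are higher and Vegfb is lower in mesenchymal libraries, with no overlap between populations within either genotype.

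Vegfc (ENSMUSG00000031520, chr8:54077606-54187096, plus strand, GRCm38), which encodes the lymphatic growth factor VEGF-C, was the ligand whose distribution between the populations differed most between genotypes. Wild type hematopoietic libraries 1 to 6 held 7.20, 4.35, 3.22, 1.98, 3.13 and 4.40 CPM. Knock-in hematopoietic libraries held 44.1, 111.9, 24.9, 50.6, 15.3 and 46.7 CPM. Every knock-in library thus lay above every wild type library, and the lowest and the highest knock-in libraries differed widely from each other. The log2 fold change was 3.62 (SE 0.44), or 12.3-fold, and it was 3.24 to 3.81 on the log2 scale in 19 alternative fits. These values chose the family and are given as a description. In that comparison 15.9% of 14030 tested genes were called, 9.01% higher and 6.89% lower in the knock-in. The filter on low counts was passed there by 9 of the 10 family genes, all but Flt4, and no call is given for them. Within the C1 libraries the ratio of group means was 12.3 and within the C2 libraries 11.8, with no overlap in either.

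In mesenchymal libraries the knock-in mean of Vegfc was the lower one. Wild type libraries 1 to 6 held 71.5, 52.4, 19.9, 21.02, 21.3 and 28.2 CPM, and knock-in libraries 16.8, 24.9, 18.3, 13.2, 16.03 and 17.6 CPM. Of the 6 knock-in libraries, 5 lay below every wild type library, and knock-in replicate 2 lay among the lower wild type ones. The log2 difference was -0.92 (SE 0.27, adjusted p = 0.0577 by edgeR), short of the threshold of 0.05. DESeq2's Wald test put it past the threshold (-0.91, adjusted p = 0.00562), as did edgeR without wild type mesenchymal replicate 3 (-1.06, adjusted p = 0.0111). Over 19 alternatives its adjusted p ran from 0.00562 to 0.223. The wild type values were uneven between the name prefixes, with means of 47.9 CPM in C1 and 23.5 CPM in C2 libraries, against 20.03 and 15.6 CPM in the knock-in.

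The population difference of Vegfc in wild type was therefore large, at 8.62-fold higher in mesenchymal libraries (log2 3.11, SE 0.38), with no overlap. It is a description, since the wild type hematopoietic libraries are the other side of the comparison that chose the family. In knock-in libraries the mesenchymal mean was below the hematopoietic mean, at a log2 difference of -1.42 (SE 0.34), which is a description since these hematopoietic libraries chose the family. The difference between the genotypes' population differences was -4.53 on the log2 scale (SE 0.51), again as a description.

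The level of Vegfc in hematopoietic libraries was set beside that of the stromal markers counted in the same libraries, whose part in it was not tested. Wild type hematopoietic libraries held Vegfc at 5.54% to 20.2% of the wild type mesenchymal mean (mean 11.3%), beside a stromal marker level of 5.95% to 18.4%. Vegfc was above the marker median in 3 of the 6. Knock-in hematopoietic libraries held it at 86.0% to 628% of the knock-in mesenchymal mean (mean 274%), beside a stromal marker level of 4.84% to 21.6%, and it was above the markers' upper quartile in 6 of 6. Knock-in replicate 6 had the lowest stromal level (4.84%) and 46.7 CPM of Vegfc. Osteoclast markers also moved with genotype in these libraries. Of 15 osteoclast genes 13 were called higher in knock-in hematopoietic libraries by edgeR and 0 lower, and their sum was 990 to 2722 CPM in wild type and 3124 to 6693 CPM in knock-in libraries. Their part in the Vegfc values was not tested. The knock-in library with the most Vegfc, replicate 2, held 5475 CPM of osteoclast markers, and the one with the least, replicate 5, held 5135 CPM. Blood endothelial markers summed to 30.3 to 50.8 CPM in wild type and 34.5 to 71.7 CPM in knock-in hematopoietic libraries. Of the 16 markers, 7 averaged 1 CPM or more in each genotype. Cldn5 was at 0 in 3 of 6 wild type and all 6 knock-in libraries. Of 7 markers tested, 1 was called higher in the knock-in and 0 lower by edgeR, against 9.01% and 6.89% of all tested genes. Of the lymphatic endothelial markers, Ccl21a was at 0 in all 24 libraries, Lyve1 averaged 0.0632 CPM and Prox1 0.348 CPM in knock-in hematopoietic libraries, and Pdpn, a mucin-like surface protein that other cells carry as well, averaged 74.9 CPM against 12.8 in wild type.

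**Figure D2:**
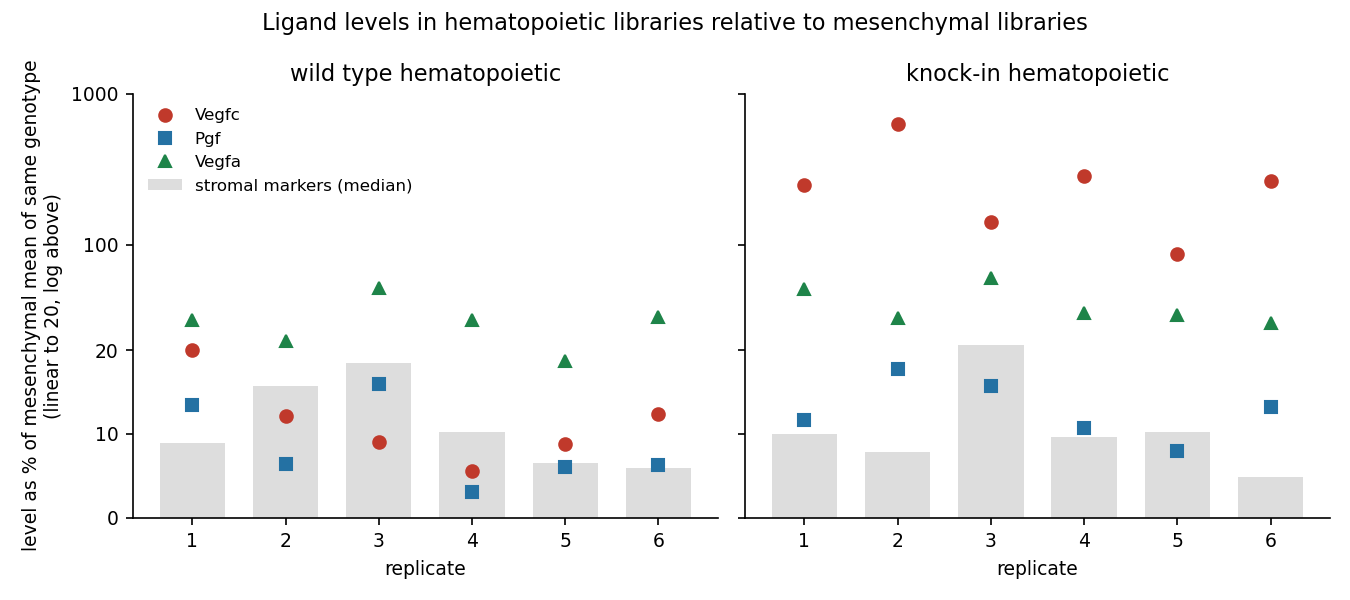
Levels of Vegfc, Pgf and Vegfa in the 6 wild type and 6 knock-in hematopoietic libraries, as a percent of the mesenchymal mean of the same genotype, with grey bars for the median of the stromal markers in the same library. The axis is linear to 20% and logarithmic above. In knock-in libraries Vegfc lies at 86.0% to 628%, above the grey bars throughout, whereas in wild type libraries it lies at 5.54% to 20.2%, above the bar in 3 of 6.

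The 5 genes whose pattern over the 24 libraries was most like that of Vegfc were found by the root mean square difference of log2 CPM, with each gene centred and scaled to unit SD, among 15388 other genes. They were Col18a1 (0.403), Baiap2 (0.417), Akap6 (0.520), Spaca6 (0.523) and Cdc42ep2 (0.532). Col18a1, which encodes the collagen that endostatin is cut from, averaged 24.1 ± 6.14 CPM in the wild type and 166 ± 50.9 CPM in the knock-in hematopoietic libraries, and 133 ± 27.2 and 123 ± 10.8 CPM in the mesenchymal ones (SD, n = 6 each). Akap6, which encodes an anchoring protein for protein kinase A, averaged 19.6 ± 9.99, 131 ± 65.8, 98.7 ± 12.4 and 57.5 ± 20.3 CPM in the same order. Each of the 5 was low in wild type hematopoietic libraries and higher in the other 3 groups. They were picked for likeness on these libraries, so this is a description.

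Vegfd, the other Flt4 ligand, did not share the hematopoietic pattern of Vegfc. Wild type and knock-in hematopoietic libraries held 1.13 to 2.74 CPM (median 2.12) and 1.85 to 3.19 CPM (median 2.09), overlapping almost fully, with a described log2 difference of 0.12 (SE 0.24). Mesenchymal libraries held 3.71 to 10.2 CPM (median 7.30) in wild type and 3.42 to 7.55 CPM (median 5.67) in knock-in. The 2 populations were apart in both genotypes, with log2 fold changes of 1.79 in wild type (SE 0.27, adjusted p = 2.13e-06) and 1.28 in knock-in libraries (SE 0.26, adjusted p = 0.000146, both by edgeR). Within the C1 libraries alone the knock-in population difference was 0.96 and lost its call (adjusted p = 0.0781). Between the mesenchymal groups the log2 difference was -0.37 (SE 0.26, adjusted p = 0.434 by edgeR).

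Pgf encodes placental growth factor, a ligand of Flt1, and had the largest population difference of the tested family values. Wild type mesenchymal libraries held 9.18 to 16.2 CPM (median 14.4) and hematopoietic ones 0.396 to 2.08 CPM (median 0.831), a log2 difference of 3.62 (SE 0.27, adjusted p = 1.80e-11 by edgeR). Knock-in libraries held 9.08 to 13.8 CPM (median 10.8) and 0.889 to 1.97 CPM (median 1.38), a log2 difference of 2.98 (SE 0.26, adjusted p = 2.97e-10 by edgeR). The hematopoietic level was 8.54% of the mesenchymal one in wild type and 12.8% in knock-in libraries on average, beside mean stromal marker levels of 10.97% and 10.7%. Pgf was above the marker median in 2 of 6 wild type and 4 of 6 knock-in libraries. Between the mesenchymal groups it differed by -0.22 on the log2 scale (SE 0.17, adjusted p = 0.471 by edgeR).

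Across the family, 9 of 10 genes were called between the populations in wild type, 7 higher and 2 lower in mesenchymal libraries, where 73.5% of 15389 tested genes were called (35.4% higher, 38.0% lower). Vegfc is among the 7, and its call is no test, since its wild type hematopoietic values were part of the comparison that chose the family. In the knock-in the 9 genes other than Vegfc were all called, 7 higher and 2 lower, against 73.0% of all tested genes (33.9% higher, 39.1% lower). The median log2 fold change of the family was 1.52 in wild type over 10 genes and 1.28 in knock-in over 9, beside -0.03 and -0.07 over all tested genes. Those 2 comparisons share no library, but each shares libraries with the genotype comparisons. Between the mesenchymal groups 0 of the 10 genes were called by edgeR, where 7.27% of 13867 tested genes were (3.44% higher, 3.83% lower). In that comparison 5 of the 10 had an unadjusted p under 0.05, namely Vegfb, Vegfc, Flt1, Flt4 and Nrp2, as did 22.7% of all tested genes. DESeq2 called 1 of the 10, Vegfc, with 1664 of 13866 genes called in all.

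**Figure D3:**
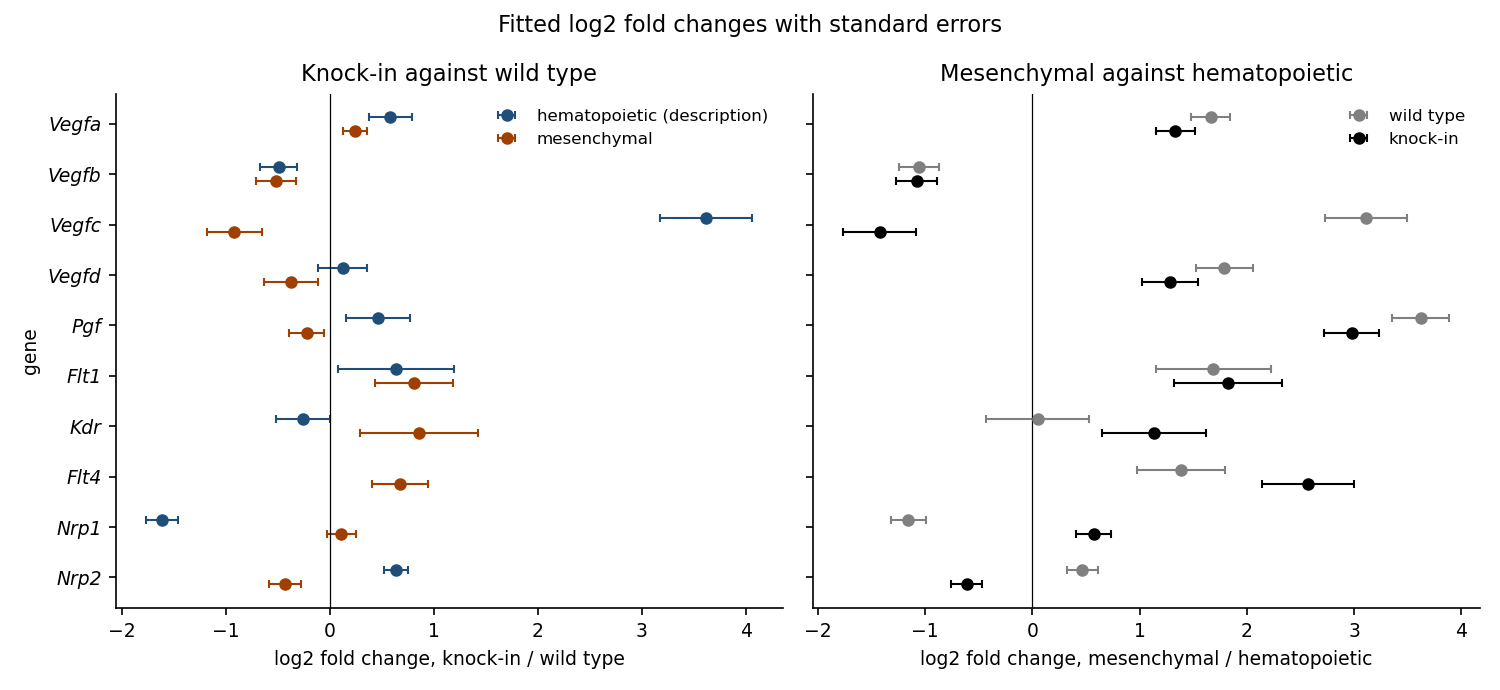
Fitted log2 fold changes with standard errors (bars) for the 10 genes. The left panel gives knock-in over wild type within each population, the right panel mesenchymal over hematopoietic within each genotype, and Flt4 has no hematopoietic value since its counts did not pass the filter. Vegfc, Nrp1 and Nrp2 lie on opposite sides of 0 in the 2 genotypes of the right panel.

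The receptor kinases were scarce, and their values rest on few counts. Flt1, the VEGF-A, VEGF-B and placental growth factor receptor that also yields a soluble decoy form not told apart here, had 2 to 37 counts in each hematopoietic library and 13 to 101 in each mesenchymal one. In CPM it ranged from 0.132 to 1.34 (median 0.833) in wild type and 0.292 to 2.85 (median 1.00) in knock-in hematopoietic libraries, and from 0.828 to 4.14 (median 2.16) and 1.70 to 8.02 (median 3.78) in mesenchymal ones. The populations overlapped in both genotypes, with 6 of 6 mesenchymal libraries above the hematopoietic mean in each. The log2 fold change was 1.69 in wild type (SE 0.53, adjusted p = 0.00697) and 1.83 in knock-in libraries (SE 0.51, adjusted p = 0.00253, both by edgeR). Within the C2 libraries alone neither passed the threshold (adjusted p = 0.245 and 0.157). Between the mesenchymal groups it was 0.81 higher in the knock-in on the log2 scale (SE 0.38, adjusted p = 0.219 by edgeR).

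Flt4, the receptor of VEGF-C and VEGF-D, had 2 to 26 counts in each hematopoietic library, so it did not pass the filter in the comparison of genotypes there. Its mean there was 1.04 ± 0.896 CPM for wild type and 0.655 ± 0.454 CPM for knock-in libraries (SD, n = 6 each), and the groups overlapped. The ratio of knock-in to wild type means was 0.437 within the C1 and 1.499 within the C2 libraries. Mesenchymal libraries held 1.34 to 3.49 CPM (median 2.56) in wild type and 2.51 to 6.76 CPM (median 3.32) in the knock-in. The population difference on the log2 scale was 1.38 in wild type (SE 0.41, adjusted p = 0.00448), with overlap, and 2.57 in knock-in libraries (SE 0.43, adjusted p = 9.91e-06, both by edgeR), with none. In the C1 libraries alone the wild type difference was 0.69 and not called (adjusted p = 0.312). Between the mesenchymal groups Flt4 differed by 0.67 (SE 0.27, adjusted p = 0.147 by edgeR), with 3 of 6 knock-in libraries above every wild type library.

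Kdr, the main signalling receptor of VEGF-A, did not separate the populations in wild type. Hematopoietic libraries held 2.47 to 6.32 CPM (median 4.66) and mesenchymal ones 1.34 to 9.59 CPM (median 4.86), a log2 difference of 0.05 (SE 0.48, adjusted p = 0.934 by edgeR) whose sign changed when any of 3 libraries was left out. Knock-in mesenchymal libraries 1 to 6 held 14.9, 15.8, 2.59, 1.42, 3.44 and 13.3 CPM. Thus 3 of them lay above every wild type mesenchymal library and the other 3 were within the wild type range. Knock-in hematopoietic libraries held 2.96 to 6.48 CPM (median 3.09). The knock-in population difference was 1.13 on the log2 scale (SE 0.48, adjusted p = 0.0399 by edgeR). The call was lost in 11 of 18 alternatives, among them 8 of the 12 fits that each left out 1 library, where the adjusted p reached 0.137. The 8 were those without any 1 of knock-in hematopoietic replicates 1 to 5 or mesenchymal replicates 1, 2 and 6. Between the mesenchymal groups Kdr differed by 0.86 (SE 0.57, adjusted p = 0.416 by edgeR).

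Endothelial markers were compared with Kdr library by library. In knock-in mesenchymal libraries 1 to 6 the sum of 16 blood endothelial markers was 142, 135, 47.3, 28.4, 62.7 and 81.5 CPM, so the 3 libraries high in Kdr were also the 3 highest in these markers. Flt1 was highest in the same 3 libraries, at 8.02, 5.88 and 5.10 CPM. Flt4 was not, at 4.93, 6.76, 2.68, 2.51, 3.64 and 2.99 CPM in knock-in mesenchymal libraries 1 to 6, with replicate 5 above replicate 6. In wild type mesenchymal libraries the sum was 92.5, 76.8, 51.3, 35.6, 62.4 and 14.1 CPM, and replicate 6, with the lowest sum, also held the least Kdr, Flt1 and Flt4. The wild type hematopoietic libraries had no such order. Replicate 1, with the highest sum of that group (50.8 CPM), held its lowest Kdr (2.47 CPM), and replicate 2, with a sum of 31.7 CPM, held its highest (6.32 CPM). Of the 11 endothelial markers tested, 0 were called between the mesenchymal genotypes by edgeR, against 7.27% of all tested genes. Their median log2 difference was 0.59, beside 0.0011 over all genes. Cdh5, the endothelial cadherin, averaged 21.1 CPM in knock-in and 12.6 CPM in wild type mesenchymal libraries. Emcn averaged 13.4 CPM in knock-in against 6.60 in wild type mesenchymal libraries, and Pecam1 13.4 against 7.87. Erg went the other way, at 6.27 against 9.21 CPM. Cldn5 and Sox18 averaged 0.309 and 0.365 CPM in the knock-in ones. Of the 16 markers, 4 averaged 10 CPM or more in knock-in and 1 in wild type mesenchymal libraries. The part of these markers in the receptor values was not tested.

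**Figure D4:**
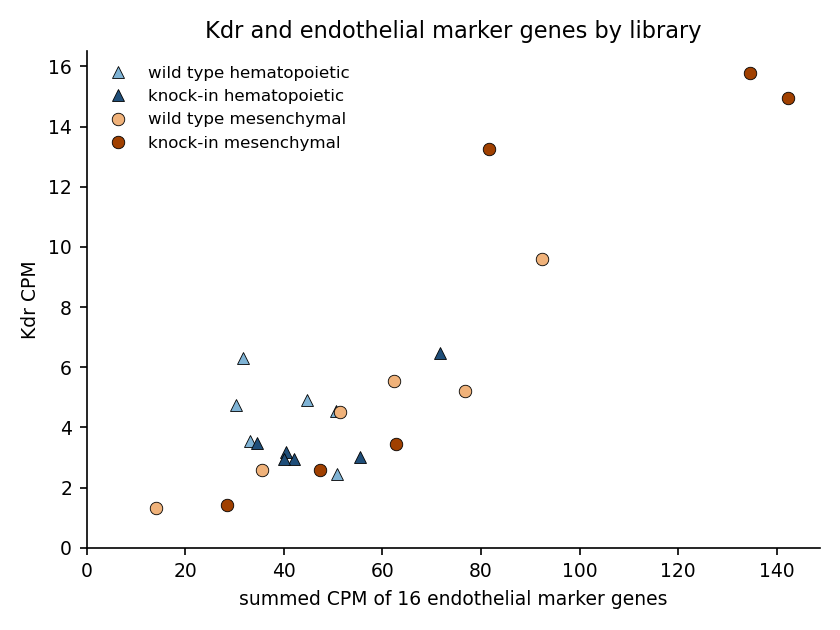
Kdr (vertical axis, CPM) against the summed CPM of 16 endothelial marker genes (horizontal axis) in all 24 libraries, with triangles for hematopoietic and circles for mesenchymal libraries. The 3 knock-in mesenchymal libraries at 13.3 to 15.8 CPM of Kdr have marker sums of 81.5 to 142 CPM, and the other 3 lie at 1.42 to 3.44 CPM with sums of 28.4 to 62.7 CPM.

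The neuropilins were the abundant receptors of these cultures, and their balance in hematopoietic libraries differed between genotypes. Nrp1, the co-receptor of VEGF-A and of semaphorin 3A, ran in wild type hematopoietic libraries 1 to 6 at 616, 524, 462, 619, 593 and 717 CPM. In knock-in hematopoietic libraries it ran at 219, 143, 173, 178, 280 and 149 CPM, all below every wild type library. The described log2 fold change was -1.61 (SE 0.15), and it was -1.73 to -1.52 over 19 alternatives. Nrp2, the co-receptor of VEGF-C and of semaphorin 3F, went the other way, at 679 to 926 CPM (median 823) in wild type and 1083 to 1550 CPM (median 1197) in knock-in hematopoietic libraries, with every knock-in library above every wild type one. Its described log2 fold change was 0.64 (SE 0.12), and 0.57 to 0.70 over 19 alternatives. Nrp1 shares 80 exon bases with the microRNA gene Mir1903 on the same strand, and no other family gene shares exon bases with another gene.

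In mesenchymal libraries the neuropilins differed less. Nrp1 held 205 to 320 CPM (median 256) in wild type and 210.9 to 376 CPM (median 274) in knock-in libraries, a log2 difference of 0.11 (SE 0.14, adjusted p = 0.710 by edgeR). Nrp2 held 688 to 1643 CPM (median 1164) in wild type and 709 to 986 CPM (median 810) in the knock-in, a log2 difference of -0.43 (SE 0.15, adjusted p = 0.107 by edgeR). The wild type range of Nrp2 enclosed all 6 knock-in libraries. Without wild type mesenchymal replicate 2, its lowest wild type library, the difference was -0.54 and past the threshold (adjusted p = 0.0333).

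**Figure D5:**
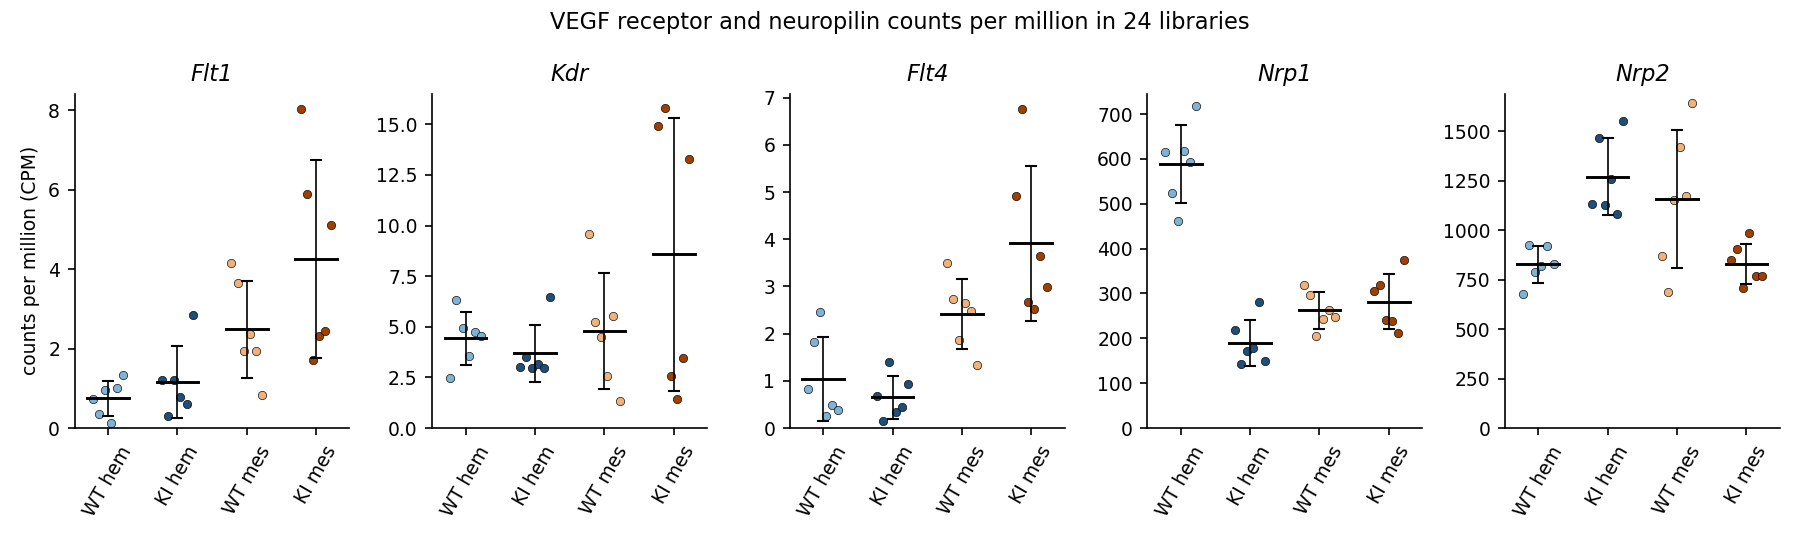
CPM of the 3 receptor kinases and the 2 neuropilins in every library, drawn as for the ligands, with a linear axis from 0 in each panel. Nrp1 is lower in all 6 knock-in hematopoietic libraries (143 to 280 CPM) than in any wild type one (462 to 717 CPM), and Nrp2 is higher (1083 to 1550 against 679 to 926 CPM), while the receptor kinases stay under 16 CPM.

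Both neuropilins were called between the populations, in opposite directions in the 2 genotypes. In wild type libraries Nrp1 was lower in mesenchymal cells (log2 -1.16, SE 0.16, adjusted p = 9.91e-07), and Nrp2 was higher by 0.47 (SE 0.15, adjusted p = 0.00641, both by edgeR). In knock-in libraries Nrp1 was higher in mesenchymal cells by 0.57 (SE 0.16, adjusted p = 0.00309), and Nrp2 was lower at -0.61 (SE 0.15, adjusted p = 0.000650, both by edgeR). The groups were apart for Nrp1 in wild type and for Nrp2 in knock-in libraries, and overlapped in the other 2 cases. Nrp2 in wild type was not called in the C1 libraries alone (0.21, adjusted p = 0.376), nor Nrp1 in knock-in in the C2 libraries alone (0.44, adjusted p = 0.133). The difference between the genotypes' population differences was 1.73 (SE 0.23) for Nrp1 and -1.08 (SE 0.21) for Nrp2 on the log2 scale. It holds the hematopoietic comparison of genotypes and is given as a description.

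Semaphorins and plexins, the other ligands and partners of the neuropilins, were counted as a list of 12 genes. In hematopoietic libraries 5 of 10 tested genes were called higher in the knock-in and 0 lower by edgeR, where 9.01% of all tested genes were called higher and 6.89% lower, with a median log2 difference of 0.63 beside -0.0048 over all genes. Plxna4, a receptor that pairs with neuropilins, averaged 171 ± 38.7 CPM in knock-in and 36.0 ± 15.99 in wild type libraries (log2 2.26, SE 0.29, adjusted p = 0.000340). Sema3c, a secreted ligand of both neuropilins, averaged 28.2 ± 8.12 against 7.38 ± 2.12 CPM (log2 1.95, SE 0.22, adjusted p = 0.000119). Plxna1 (0.69) and Plxna2 (0.80) rose as well. The osteoclast markers, 13 of 15 called higher in the same libraries, were not tested for a part in these values. In mesenchymal libraries 1 of 11 was called higher by edgeR, Plxna1 (0.45, adjusted p = 0.00779), and 2 lower, Sema3d (-2.46, adjusted p = 0.0244) and Plxna2 (-0.73, adjusted p = 0.0358). Of all tested genes 3.44% were called higher there and 3.83% lower. Between the wild type populations 8 of 11 stood higher and 2 lower on the mesenchymal side, among them Plxna3 (2.42) and Sema3a (3.14). In the knock-in 6 were higher and 2 lower, the lower ones being Plxna4 (-3.82) and Plxnd1 (-1.86). Of all tested genes 35.4% were called higher and 38.0% lower in wild type, and 33.9% and 39.1% in the knock-in.

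Genes that process or bind VEGF ligands were a list of 16, all of them tested. In mesenchymal libraries the list had a median log2 difference of 0.25. There 4 genes were called higher in the knock-in and 0 lower, against 3.44% and 3.83% of all tested genes. The 4 included Adamts3 (0.70, SE 0.19, adjusted p = 0.0422), the protease that cuts the VEGF-C precursor, and its relative Adamts14 (1.09, SE 0.16, adjusted p = 0.00167, both by edgeR). Mmp9, a matrix protease known for releasing bound VEGF-A, averaged 18.4 ± 9.52 CPM in knock-in and 0.623 ± 0.346 CPM in wild type mesenchymal libraries (log2 4.89, SE 0.45, adjusted p = 0.000135). Mmp9 is also an osteoclast gene, and Acp5 (3.595) and Atp6v0d2 (3.92) of that list were called with it. Leukocyte markers stood at 0.136% to 0.905% of the hematopoietic level in these knock-in libraries, and their part was not tested. In hematopoietic libraries 4 were called higher and 1 lower, against 9.01% and 6.89% of all tested genes. Those called included Mmp9 (2.90), Adamts14 (1.30), Furin (0.47), the convertase that cuts VEGF-C and VEGF-D precursors, and Plau (-0.76), the urokinase gene. Adamts14 averaged 2.64 (wild type) and 6.26 CPM (knock-in) in hematopoietic libraries, against 23.8 and 50.7 CPM in mesenchymal ones. Stromal markers stood at 10.97% and 10.7% of the mesenchymal level in these hematopoietic libraries, and their part in the Adamts14 values was not tested. Between the populations 10 of 16 were higher and 3 lower in mesenchymal libraries of either genotype, with Hspg2, the perlecan gene, at 3.25 (wild type) and 3.40 (knock-in), and the cathepsin D gene Ctsd at -3.83 and -3.55. All tested genes were called higher at 35.4% and lower at 38.0% in wild type, and at 33.9% and 39.1% in the knock-in.

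Of 23 tested genes for receptor partners and adaptors, 4 were called higher and 3 lower in knock-in hematopoietic libraries. The shares over all tested genes were 9.01% higher and 6.89% lower. Sdc1, a heparan sulfate proteoglycan of the cell surface, averaged 159 ± 56.6 CPM in the knock-in and 24.2 ± 8.06 CPM in wild type (log2 2.78, SE 0.26, adjusted p = 5.51e-05 by edgeR). The endocytic adaptor gene Epn2 was higher by 1.14 and the integrin gene Itgav by 0.73, and the endocytic adaptor gene Dab2 was lower at -0.81. In mesenchymal libraries 3 of 23 were higher and 1 lower in the knock-in, against 3.44% and 3.83% of all tested genes. Those called were Efnb2 (0.64, adjusted p = 0.00127 by edgeR), the ephrin ligand that takes part in VEGF receptor uptake, Sdc1 (0.50), Shb (0.68) and Shc1 (-0.32). In wild type 10 of 23 were higher and 10 lower in mesenchymal libraries, with Dab2 at -4.50 and Grb2 at -2.12. In the knock-in 9 were higher and 12 lower. Calls over all tested genes came to 35.4% higher and 38.0% lower for wild type, and to 33.9% and 39.1% for the knock-in.

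Of the downstream signalling genes, 6 of 43 tested were called higher and 6 lower in knock-in hematopoietic libraries, with a median log2 difference of -0.06. The shares over all tested genes were 9.01% and 6.89%. Rcan1, a calcineurin inhibitor gene and a known target of VEGF signalling, was higher by 0.78 (SE 0.11, adjusted p = 0.000387 by edgeR), and Pik3cb by 0.71. The phospholipase gene Pla2g4a was lower at -0.78 and Pik3r1 at -0.42. In mesenchymal libraries 2 of 43 were called higher in the knock-in and 0 lower, against 3.44% and 3.83% of all tested genes. The phosphatase gene Dusp1 was among the 2 (0.91, adjusted p = 0.0159 by edgeR). Between the wild type populations Pik3cd, which encodes a catalytic subunit of phosphoinositide 3-kinase, was lower in mesenchymal libraries at -5.57, and Plcg2, a phospholipase C gene, at -4.90. In all, 11 of 45 were higher and 26 lower there, and 13 and 23 in the knock-in. Between the populations 35.4% of all tested genes were called higher and 38.0% lower in wild type, and 33.9% and 39.1% in the knock-in.

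The hypoxia system, which controls Vegfa in many cells, was counted as a list of 20 genes. In hematopoietic libraries 7 of 19 tested were called higher in the knock-in and 0 lower, against 9.01% and 6.89% of all tested genes. Hif1a, the oxygen-regulated transcription factor gene, averaged 263 ± 23.1 CPM (knock-in) and 132 ± 17.5 CPM (wild type) (SD, n = 6 each; log2 1.01, SE 0.10, adjusted p = 5.01e-05 by edgeR). The known hypoxia-induced genes Pdk1 (0.80), Bnip3 (0.80) and Ldha (0.63) were higher as well. Osteoclast markers summed to 990 to 2722 CPM in these wild type and 3124 to 6693 CPM in these knock-in libraries, and their part in the hypoxia list was not tested. In mesenchymal libraries 1 of 18 was called higher by edgeR, Ndrg1 (1.15, adjusted p = 0.00931), and 1 lower, Epas1, which encodes HIF-2 alpha (-0.75, adjusted p = 0.0387). The shares of all tested genes there were 3.44% and 3.83%. In wild type Hif1a was higher in mesenchymal libraries by 1.22, Epas1 by 1.87 and Adm by 3.601, and 9 of 19 genes were higher and 3 lower. In the knock-in 7 were higher and 4 lower. Of all tested genes 35.4% were higher and 38.0% lower in mesenchymal libraries of the wild type, and 33.9% and 39.1% in those of the knock-in.

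Among the related PDGF and angiopoietin genes, 3 of 11 were called lower in knock-in mesenchymal libraries and 0 higher. The shares over all tested genes were 3.83% lower and 3.44% higher. Angpt1, the ligand of the endothelial receptor Tek, averaged 48.6 ± 13.5 CPM in the knock-in against 131 ± 30.5 CPM in wild type (log2 -1.43, SE 0.18, adjusted p = 0.000616 by edgeR). Angpt4 differed by -1.06 (adjusted p = 0.000713) and Pdgfa by -0.98 (adjusted p = 0.0178). In hematopoietic libraries 1 of 10 was called higher in the knock-in by edgeR, Pdgfb (0.68, adjusted p = 0.00510), and 1 lower, Angpt4 (-1.06, adjusted p = 0.0274). The shares over all tested genes were 9.01% higher and 6.89% lower there. Angpt4 averaged 9.55 (wild type) and 4.48 CPM (knock-in) in hematopoietic libraries, against 102 and 48.5 CPM in mesenchymal ones. Stromal markers stood at 10.97% and 10.7% of the mesenchymal level in these hematopoietic libraries, and their part in the Angpt4 values was not tested. Between the populations 9 of 11 were higher and 1 lower in mesenchymal libraries of either genotype, with Pdgfrb at 3.80 (wild type) and 3.85 (knock-in). Pdgfb was the lower one in the knock-in, at -4.12. Of all tested genes, 35.4% were called higher and 38.0% lower between the populations in wild type, and 33.9% and 39.1% in the knock-in.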

How the data were processed

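RNA-seq was analysed in 24 libraries. Stranded libraries of rRNA-depleted RNA were sequenced as paired ends, per the labels' protocols. The deposited files hold raw counts per gene, not normalised. Per the submitters' processing notes, HTSeq 0.9.1, FastQC 0.11.7, MultiQC and DESeq2 1.20.0 were used with GRCm38 (mm10). The strand setting is not given in the sources used here. Genes were matched by Ensembl identifier (54079 of 54232 had a symbol). In R 4.3.3, edgeR 4.0.16 filtered genes by filterByExpr (at least 10 counts, 15 in total), applied TMM factors and ran the robust quasi-likelihood test with the name prefix as a term. P-values were adjusted by Benjamini-Hochberg over all genes tested, called under 0.05. The genotype comparisons used 12 libraries each, and the population comparisons all 24. The test was checked on simulated counts. DESeq2 1.42.0, no filter, no prefix term, each prefix alone, a replicate block and leaving out each library were alternatives.

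The members and lists were chosen with earlier results of these data known. All 10 members were named, up to 4 called genes per pathway list and comparison by adjusted p, and the 5 genes most like Vegfc. The text gives part of the genes so named, 1 of them is not reported here, and marker genes named beside them were picked after their values were seen. Promoter letters are from RefSeq on GRCm38.p6, and all 10 members matched the table. Depth limits the receptor kinases, at 2 counts in the lowest libraries.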

Additional observations from a re-analysis of the deposited data

Results flagged for a closer look

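In each set of 6 libraries the most extreme library was compared with its nearest neighbour, over 40 sets of 1 family gene in 1 group, of which chance alone marks about 1 in 20. Vegfc in knock-in hematopoietic replicate 2 stood at 111.9 CPM against 50.6 CPM in the nearest library, a gap of 0.635 of the group's range. Flt1 in knock-in hematopoietic replicate 6 stood at 2.85 CPM against 1.22 CPM, a gap of 0.637. Kdr in that same library stood at 6.48 CPM against 3.50 CPM, a gap of 0.847. That library also had the highest endothelial marker sum of its group (71.7 CPM) and the lowest stromal marker level (4.84%), and their part was not tested.

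For Vegfc and Nrp2, all 6 knock-in hematopoietic libraries lay above the wild type mean and all 6 knock-in mesenchymal libraries lay below it. Knock-in over wild type, the ratio of mean CPM of Vegfc was 12.1 in hematopoietic and 0.499 in mesenchymal libraries, and that of Nrp2 was 1.54 and 0.718. Neither mesenchymal difference passed the threshold (adjusted p = 0.0577 for Vegfc and 0.107 for Nrp2, both by edgeR). The difference between the populations' genotype effects was not tested for either gene, since it holds the comparison that chose the family.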

How the results depend on the processing

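Of 532 alternative values of the 29 tested family results, 506 kept direction and side of the threshold, 17 lost the call, 3 gained it and 6 changed sign. The 29 include the wild type population difference of Vegfc, which is given above as a description. Of 489 alternatives for the 20 described values, 3 moved by more than 1 SD between libraries, all differences between populations' genotype effects within 1 name prefix (Flt4 2.05 in C1 and -0.06 in C2, Nrp2 -0.77 in C1). The signs that changed belong to values near 0: Vegfa between mesenchymal genotypes was -0.0016 in C1 alone, Kdr between wild type populations was -0.45 in C2 alone and -0.21 to 0.25 when 1 library was left out, and Nrp1 between mesenchymal genotypes was -0.020 to 0.17 when 1 library was left out. Of the lost calls, 11 were those of Kdr between knock-in populations, such as 1.11 without the filter (adjusted p = 0.0981). C1 or C2 alone has 3 libraries a group, and lost the calls given in the report.

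The number of genes called between mesenchymal genotypes, 1008, was 1664 by DESeq2, 391 in C1 alone, 76 in C2 alone and 646 to 1036 when 1 library was left out, lowest without knock-in mesenchymal replicate 1. Between hematopoietic genotypes 2231 genes became 672 in C1 and 218 in C2. For the difference between the populations' genotype effects 1121 genes became 180 and 138. Fewer libraries entered each of those fits. All other counts of called genes stayed within 1.5 times.

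With a replicate block in place of the prefix, 1195 genes were called between mesenchymal and 2773 between hematopoietic genotypes. Among the family it ended 1 call, Kdr between knock-in populations (0.95, adjusted p = 0.0777), and changed no other. After group and prefix means were removed, same-numbered libraries correlated at 0.06 to 0.40 between hematopoietic genotypes (5 of 6 pairs over 0.1), 0.03 to 0.30 between mesenchymal genotypes (4 of 6), -0.09 to 0.26 between wild type populations (2 of 6) and -0.08 to 0.27 between knock-in populations (3 of 6). Pairing was accepted only with every pair of a comparison over 0.1, which none met, and 8, 5, 3 and 3 of 12 libraries correlated best with their own number.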
